A study of Mus musculus with 16 samples.

Results

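Expression of 7 erythroid genes, Gata1, Klf1, Epor, Alas2, Rhd, Rhag and Car1, was examined in mouse hematopoietic stem cells, which live in the bone marrow and give rise to all blood cells. The genes were taken by symbol from a table of read counts for 14829 genes, and all 7 were found and passed the filter on low counts. The study asked how old and young stem cells respond to dmPGE2, a long-lived dimethyl derivative of the lipid signal prostaglandin E2. Bone marrow of 4 young and 4 old mice was divided, and each portion was held for 1 h at 37 °C with either dmPGE2 or vehicle before the stem cells were sorted and their RNA was extracted. This gave 16 libraries in 4 groups of 4, namely young vehicle, young dmPGE2, old vehicle and old dmPGE2, with both libraries of a mouse holding cells of the same animal. All mice were handled this way, and the labels name no allele, no other agent, no strain, no age in months and no sorting gate.

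Red cells arise from stem cells through megakaryocyte-erythroid progenitors, burst-forming and colony-forming erythroid cells and then erythroblasts, which make hemoglobin. The zinc finger proteins GATA1 and KLF1 switch on most genes of this lineage, erythropoietin keeps its progenitors alive through the receptor EPOR, and the late products serve heme synthesis, the red cell membrane and carbon dioxide transport. Stem cells carry low levels of some of these RNAs, Gata1 and Epor among them, while Klf1, Alas2, Rhd, Rhag and Car1 are best known from committed erythroid cells.

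The sample descriptions carry 2 dates, 4-16-19 and 4-17-19, with 2 young and 2 old mice on each. They are called the first and the second date here, and what was done on them is not stated. Library totals ran from 16.67 to 19.23 M counts (M, 1000000) on the first date and from 12.96 to 15.69 M on the second. Levels are given as CPM (counts per 1000000, scaled between libraries by the TMM method). Because RNA of erythroid cells was known beforehand to be more abundant on the second date, old and young mice were compared within each date. RNA of other blood cells set the second date apart as well. The summed level of 8 mast cell and basophil genes, led by Prss34 and Mcpt8, was 8.57 to 19.2 CPM in the libraries of the first date and 528 to 4370 CPM in those of the second. The summed level of 10 neutrophil genes was 4.18 to 9.66 CPM on the first date and 760 to 1480 CPM on the second. The 11 stem cell markers, among them Procr, Mecom and Kit, were present in every library, with summed levels of 2710 to 5360 CPM. RNA of genes that mark committed cells was thus present beside that of the stem cell markers. Fewer cells of a type and less of its RNA per cell cannot be told apart in such bulk libraries.

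On build mm10 the genes lie on 6 chromosomes. Gata1 (X:7959260-7967910, minus strand) and Alas2 (X:150547417-150570622, plus strand) share the X chromosome. Klf1 lies at 8:84901928-84905295 (plus strand), Epor at 9:21958899-21963576 (minus strand), Rhd at 4:134864536-134896172 (plus strand), Rhag at 17:40811149-40840754 (plus strand) and Car1 at 3:14766214-14808365 (minus strand). Alas2 is the only member that overlaps other genes in the GENCODE M21 annotation. Its neighbor Apex2 shares up to 295 bases with it on the opposite strand, and the microRNA gene Mir3620 overlaps it by 29 bases, also on the opposite strand. The strand setting of the counting is not stated, and reads of the shared bases may have gone to either gene. Apex2 itself was at 9.43 to 17.2 CPM on the first date and 8.74 to 18.1 CPM on the second.

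Since GATA1 and KLF1 are the regulators in the list, the DNA just before each gene's start is shown for the 6 genes found in the RefSeq promoter table. Car1 is not in that table. Each line gives the 130 bases before the start on the gene's own strand, 5′ to 3′, from RefSeq on GRCm38.p6. Capitals mark the core that GATA factors bind, searched as AGATAA or as AGATAG or with T in place of the first letter, which gives TGATAA and also TGATAG. They also mark the CACCC-type core that Krüppel-like factors bind, searched as CCNCNCCC. Each was searched on both strands.
Gata1 promoter, chrX:7967911-7968040, minus strand: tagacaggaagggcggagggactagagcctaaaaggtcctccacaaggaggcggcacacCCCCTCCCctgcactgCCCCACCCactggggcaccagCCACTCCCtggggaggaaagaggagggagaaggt
Klf1 promoter, chr8:84901852-84901981, plus strand: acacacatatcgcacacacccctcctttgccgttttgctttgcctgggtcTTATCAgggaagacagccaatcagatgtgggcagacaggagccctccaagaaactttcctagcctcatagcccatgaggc
Epor promoter, chr9:21963577-21963706, minus strand: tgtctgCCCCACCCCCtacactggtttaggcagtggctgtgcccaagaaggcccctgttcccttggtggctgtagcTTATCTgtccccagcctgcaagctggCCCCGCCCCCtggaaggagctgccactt
Alas2 promoter, chrX:150547287-150547416, plus strand: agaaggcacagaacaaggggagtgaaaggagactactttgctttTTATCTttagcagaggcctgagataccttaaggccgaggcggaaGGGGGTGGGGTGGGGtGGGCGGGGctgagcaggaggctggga
Rhd promoter, chr4:134864406-134864535, plus strand: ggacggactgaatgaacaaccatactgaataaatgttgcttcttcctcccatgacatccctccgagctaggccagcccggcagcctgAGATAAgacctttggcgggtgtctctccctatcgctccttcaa
Rhag promoter, chr17:40811019-40811148, plus strand: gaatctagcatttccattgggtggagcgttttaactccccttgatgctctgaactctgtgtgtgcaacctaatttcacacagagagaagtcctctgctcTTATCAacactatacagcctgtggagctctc
In the full window of 250 bases before to 50 bases after the start, the GATA letters were found in 5 of 6 members, all but Gata1. Among 32851 promoters of the same length in the table, 29.8% held them. The match lay at -80 to -75 in Klf1, -54 to -49 in Epor, -86 to -81 in Alas2, -43 to -38 in Rhd and -31 to -26 in Rhag, counted back from -1 at the last base before the start. CACCC letters were found in 4 of 6 members against 49.5% of all promoters, with 3 matches in Gata1, 4 in Epor, 4 in Alas2 and 1 in Rhd. Several of the matches in Epor and Alas2 overlap one another, and the match in Rhd lies after the start, at 3 to 10. Both motifs were found in 3 of 6 members against 10.2% of all promoters. A match describes these letters and does not show that a factor binds there.

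Klf1, Alas2, Rhd, Rhag and Car1 were low in all libraries of the first date and higher on the second, more so in young mice, while Gata1 and Epor differed less between the dates. In vehicle libraries the summed level of the 7 genes was 81.2 and 82.7 CPM in young mice and 91.5 and 52.8 CPM in old mice on the first date. It was 1170 and 1060 CPM in young mice and 510 and 432 CPM in old mice on the second date, most of it from Alas2 and Car1. Since the genes were proposed with this difference between the dates in view, the difference is described and supports nothing.

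Gata1, the transcription factor that commits progenitors to the erythroid and megakaryocytic lineages, was the member with the highest level per length on the first date. Its vehicle libraries stood at 30.5 and 34.3 CPM in young mice and at 36.4 and 6.6 CPM in old mice on that date. Those of the second date stood at 76.3 and 65.0 CPM in young mice and at 43 and 25.9 CPM in old mice. The ages overlapped on the first date, where 1 old mouse, number 480, was low in both of its libraries, with 14.8 CPM after dmPGE2. All young libraries of the second date were above all old ones.

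Klf1, the factor that activates adult globin, heme and membrane genes, was barely present on the first date. Vehicle libraries held 4.90 and 5.38 CPM in young mice and 7.57 and 3.79 CPM in old mice. Values of the second date were 108 and 114 CPM in young mice and 38.6 and 16.4 CPM in old mice. The old mice of the second date were thus below the young ones without overlap, and still above every library of the first date.

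Epor, the erythropoietin receptor, varied least among the 7. Vehicle levels on the first date were 13.6 and 15.9 CPM in young mice and 19.4 and 13.1 CPM in old mice. Those of the second date were 29.1 and 32.3 CPM in young mice and 20.9 and 21.2 CPM in old mice. The ages overlapped on the first date and were separate on the second.

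Alas2, the erythroid enzyme of the first and rate-limiting step of heme synthesis, spread widely on the first date. It stood at 15 and 7.37 CPM in young vehicle libraries and at 3.90 and 21.7 CPM in old ones. The second date gave 355 and 433 CPM in young mice and 228 and 266 CPM in old mice. The ages were separate there, with a smaller gap than that of Klf1.

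Rhd, which encodes the Rh antigen protein, and Rhag, its partner in the Rh complex of the red cell membrane, had like patterns. On the first date vehicle libraries held 2.83 and 3.01 CPM of Rhd in young mice and 1.32 and 0.769 CPM in old mice. Vehicle libraries of the second date held 115 and 129 CPM in young mice and 39.6 and 24.3 CPM in old mice. These groups did not overlap on either date. Rhag stood at 2.83 and 4.41 CPM in young and 1.03 and 1.54 CPM in old vehicle libraries on the first date. It stood at 54.1 and 57.0 CPM in young and at 19.9 and 13.5 CPM in old mice on the second date. Here too the ages were separate on both dates.

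Car1, carbonic anhydrase 1, an enzyme of early erythroid progenitors and mature red cells, was second to Alas2 in level per length on the second date. Vehicle libraries held 11.5 and 12.2 CPM in young mice and 21.8 and 5.33 CPM in old mice on the first date. Libraries of the second date held 436 and 233 CPM in young mice and 120 and 64.3 CPM in old mice. The ages overlapped on the first date and were separate on the second.

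**Figure D1:**
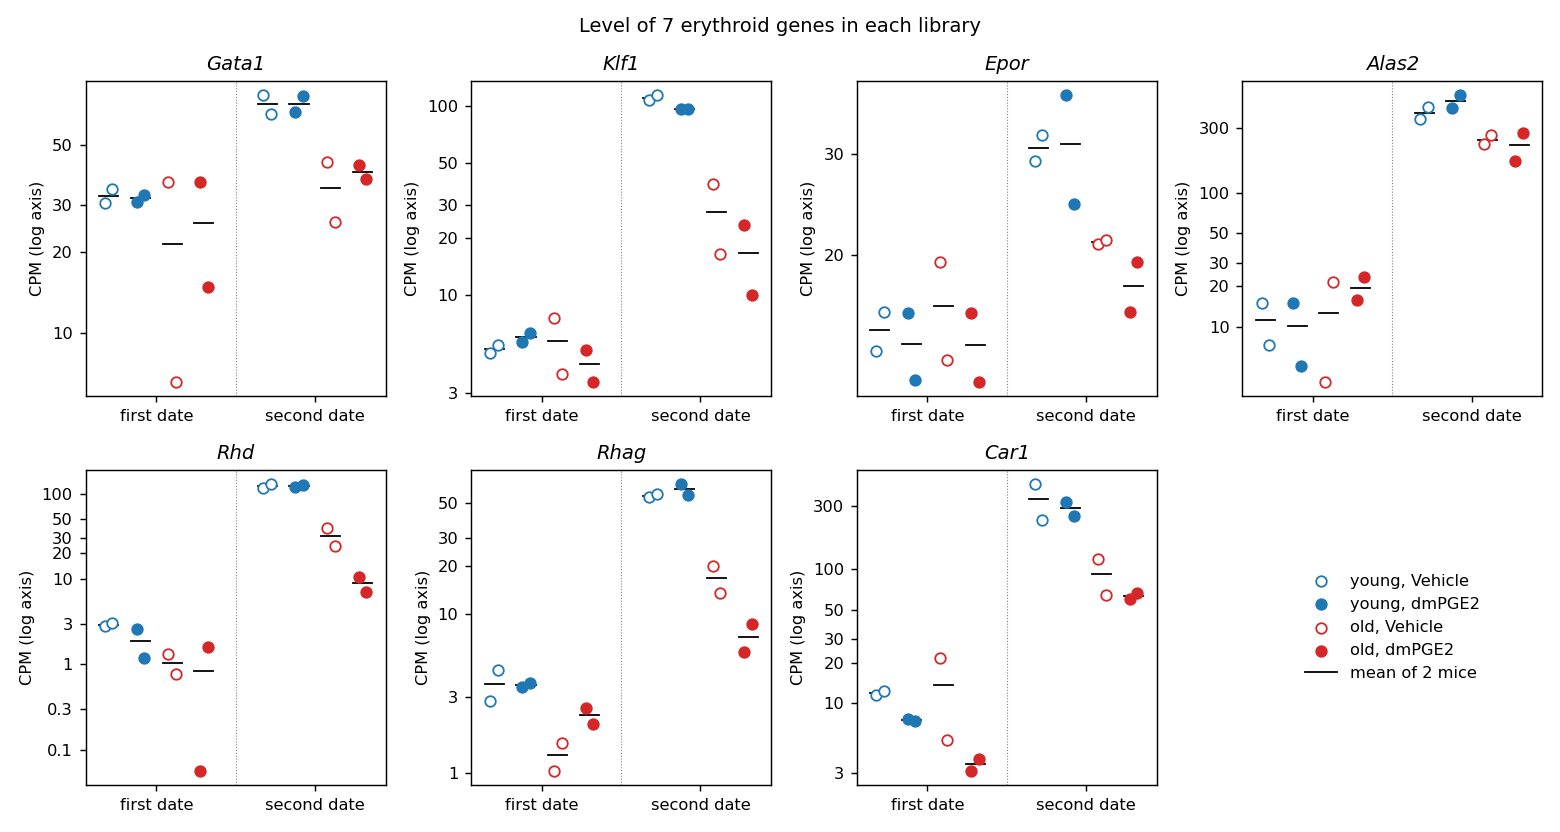
Level of each erythroid gene in each of the 16 libraries, in CPM on a log axis, by date, with young mice in blue, old mice in red, open circles for vehicle and filled circles for dmPGE2, and the bar at the mean of the 2 mice. On the second date all 7 genes have both old libraries below both young libraries of the same treatment, against 24% of all genes tested in vehicle and 23% in dmPGE2 libraries. On the first date the ages are separate in either direction for 2 of 7 genes in vehicle libraries, against 53.8% of all genes, and for 4 of 7 in dmPGE2 libraries, against 56.5%.

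Levels per length, as the median CPM per kilobase of summed exons over the 8 libraries of a date, changed order between the dates. The order on the first date was Gata1 at 16.6, Epor at 8.03, Alas2 at 7.62, Car1 at 5.99, Klf1 at 3.42, Rhag at 1.16 and Rhd at 0.965 CPM per kilobase. Alas2 led on the second date with 160, followed by Car1 at 142, Rhd at 51.1, Klf1 at 43.9, Gata1 at 28.4, Rhag at 16.0 and Epor at 12.5 CPM per kilobase. The regulators and the receptor thus stood above the membrane and enzyme genes on the first date apart from Klf1, and Alas2 and Car1 stood above all others on the second. The ranges of neighbors over the libraries of a date overlapped on both dates, except those of Klf1 and Rhag on the first. These ranges span both ages and come from the same libraries, so their overlap does not show that neighbors were alike. Car1 was above its neighbor Rhd in every library of the second date, such as 48 against 7 CPM per kilobase in old mouse 485 after dmPGE2.

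Between the dates, 6 of 7 genes were called higher in young vehicle libraries (5.08% of all 14115 genes tested were), and 4 of 7 in old vehicle libraries (2.9% of all genes). After dmPGE2 the counts were 6 of 7 in young mice (4.7% of 14029 genes) and 5 of 7 in old mice (2.45%). Calls are those of edgeR's quasi-likelihood test with a Benjamini-Hochberg adjusted p below 0.05. The log2 difference of the second from the first date in young vehicle libraries was 5.36 for Rhd, 5.12 for Alas2, 4.80 for Car1, 4.41 for Klf1, 3.92 for Rhag, 1.10 for Gata1 and 1.04 for Epor. In old vehicle libraries it was 4.91 for Rhd, 4.25 for Alas2, 3.67 for Rhag, 2.75 for Car1, 2.26 for Klf1, 0.66 for Gata1 and 0.36 for Epor. The genes were proposed with this difference between the dates in view, so the outcome of these tests was known beforehand. The calls, the shares of all genes and the log2 differences restate the rule by which the ages were compared within dates. They are given as a description and are no evidence that the members stand out from other genes.

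Old mice had less RNA of Rhd, Rhag and Klf1 than young mice on the second date, in both treatments. For all 7 genes both old libraries of that date lay below both young libraries of the same treatment, as they did for 24% of all genes in vehicle and 23% in dmPGE2 libraries. In vehicle libraries 3 of 7 genes were called lower in old mice, Rhd, Rhag and Klf1, against 2.59% of all 14115 genes tested. No member was called higher, against 4.43% of all genes. The median log2 difference of old from young was -1.75 over the members and 0.01 over all genes. Rhd was 3.84-fold lower in old mice, a log2 difference of -1.94 ± 0.24 (SE, adjusted p = 0.00209). Rhag was 3.35-fold lower (-1.75 ± 0.29, adjusted p = 0.00834), and the transcription factor gene Klf1 was 4.06-fold lower (-2.02 ± 0.37, adjusted p = 0.0128). The remaining 4 members had negative differences that did not pass the test. These were -1.87 ± 0.60 for Car1 (adjusted p = 0.131), -1.05 ± 0.61 for Gata1 (0.351), -0.68 ± 0.62 for Alas2 (0.585) and -0.56 ± 0.24 for Epor (0.207). Without mouse 479 or without mouse 480, both of the first date, Car1 (-1.87) and Gata1 (-1.05) were called in addition, with log2 differences that had not moved. Without young mouse 484 the call of Klf1 was lost, at -1.98. Calls over all genes changed with the mouse left out too, so these changes are no result about the members. Each comparison within a date rested on 2 mice per age. The p-values use a spread estimated from the mice of both dates together, so mice of the first date enter them too.

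The dmPGE2 libraries of the same mice gave 4 of 7 genes called lower in old mice on the second date, against 2.87% of all 14029 genes. These libraries hold cells of the same animals and are no independent repeat. Rhd stood at 119 and 125 CPM in young and at 10.6 and 7.06 CPM in old dmPGE2 libraries, and Rhag at 65.7 and 55.8 CPM against 5.75 and 8.59 CPM. Car1 stood at 322 and 251 CPM against 59.9 and 66.1 CPM, and Klf1 at 97.0 and 96.0 CPM against 23.3 and 9.99 CPM. All 4 genes were separate between the ages by a wide margin. The log2 difference was -3.79 ± 0.52 for Rhd (SE, adjusted p = 0.00373), -3.08 ± 0.26 for Rhag (0.000377), -2.54 ± 0.34 for Klf1 (0.0037) and -2.19 ± 0.15 for Car1 (0.000117). Alas2 at -1.08 ± 0.36 (adjusted p = 0.105), Epor at -0.82 ± 0.28 (0.111) and Gata1 at -0.85 ± 0.32 (0.151) did not pass. Leaving out 1 mouse of the first date added a call, of Alas2 without 477 or 478 (-1.08 in both) and of Gata1 without 479 (-0.85) or 480 (-0.84). These log2 differences hardly moved, and calls over all genes changed as well, so the added calls are no result about the members.

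On the first date, where the levels were low, fewer members differed by age. In vehicle libraries the called genes were Rhd and Rhag, 2 of 7, both lower in old mice, against 2.69% of all genes called lower and 3.24% called higher. Rhd differed by -1.50 ± 0.36 on the log2 scale (SE, adjusted p = 0.0379) and Rhag by -1.50 ± 0.35 (adjusted p = 0.0358). The other log2 differences were -0.61 for Gata1, 0.13 for Klf1, 0.12 for Epor, 0.18 for Alas2 and 0.17 for Car1, and the median over the 7 was 0.12. Without old mouse 479, Gata1 was called as lower in old mice (-2.31, adjusted p = 0.0101). The calls of Rhd and Rhag were lost in a fit of the first date alone and when young mouse 478 or old mouse 480 was left out, while without mouse 477 Rhag alone was called and without mouse 479 Gata1 alone. In the dmPGE2 libraries of that date 1 of 7 genes was called lower, Car1, at 3.12 and 3.82 CPM in old mice against 7.59 and 7.36 CPM in young mice (-1.13 ± 0.19, adjusted p = 0.0104), against 2.02% of all 14029 genes. Rhd stood at 2.57 and 1.17 CPM in young and at 0.0568 CPM, a single count of 1, and 1.60 CPM in old dmPGE2 libraries, and these overlapped. Alas2 was the gene with the opposite order, at 15.8 and 23.4 CPM in old and 15.1 and 5.13 CPM in young mice, a log2 difference of 0.94 ± 0.43 that did not pass (adjusted p = 0.288). The call of Car1 was lost when any 1 of the 4 mice of the date was left out. With the counts of both libraries of a mouse added, Car1 differed by -0.20 (adjusted p = 0.864) and was not called.

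**Figure D2:**
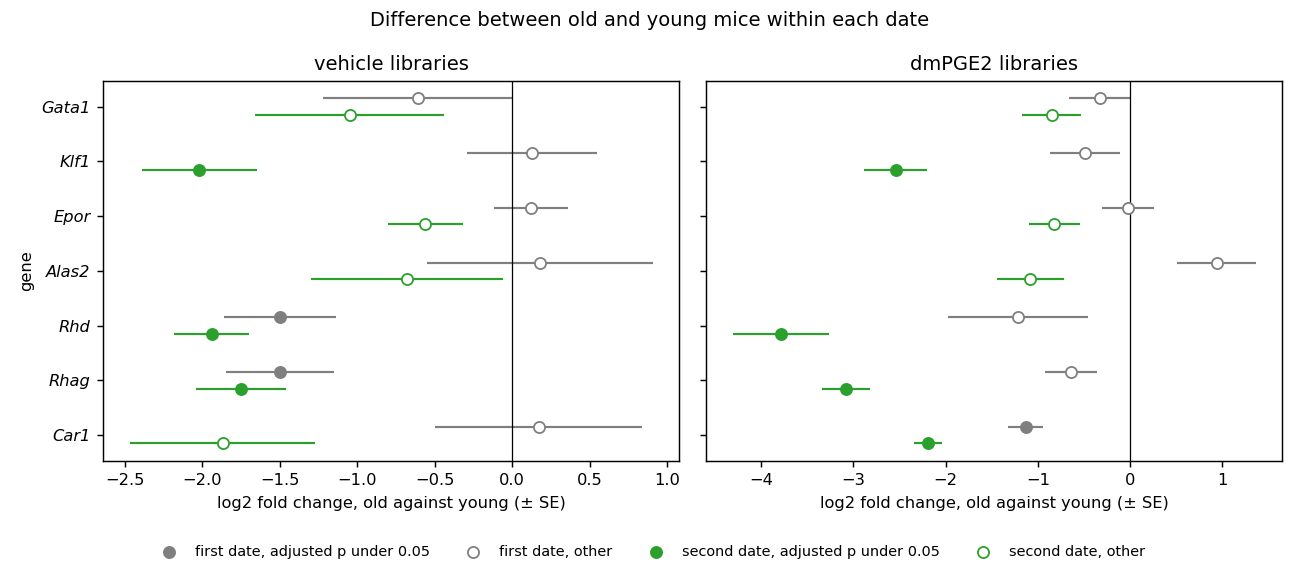
Log2 fold change of old against young mice for each erythroid gene within each date, from edgeR, with bars of 1 SE, for vehicle libraries at left and dmPGE2 libraries at right, grey for the first and green for the second date, filled where the adjusted p is under 0.05. On the second date every gene lies below 0 in both treatments, with Rhd and Rhag farthest down after dmPGE2, and on the first date Alas2 after dmPGE2 is the point farthest above 0.

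The difference between old and young mice was then compared between the dates directly. In vehicle libraries 0 of 7 members, and 0% of all genes, were called for a difference between the dates by edgeR. Over all genes 827 had an unadjusted p under 0.05, and DESeq2 called 49. Klf1 came nearest, with an age difference lower by 2.15 log2 units on the second date (-2.15 ± 0.56, adjusted p = 0.647), and was the 1 member with an unadjusted p under 0.05. DESeq2 called it, at -2.17 (adjusted p = 0.0156). In dmPGE2 libraries 0 of 7 members were called, against 0.0356% of all genes, with 5 members at an unadjusted p under 0.05. Over all 14029 genes tested there, 1060 had an unadjusted p under 0.05 by edgeR. DESeq2 called 3 of these 5 members, Klf1 (-2.07), Rhag (-2.47) and Car1 (-1.09), and its count over all genes is not given for these libraries. The edgeR values were -2.44 ± 0.38 for Rhag (adjusted p = 0.139), -2.05 ± 0.50 for Klf1 (0.347) and -1.06 ± 0.24 for Car1 (0.294). Whether the age difference depended on the date was therefore called or not called according to the tool. With edgeR, Klf1 was called without old mouse 485 (-2.78) and Rhag without old mouse 486 (-2.78), both in dmPGE2 libraries. Each of these fits held only 1 old mouse on the second date. Calls over all genes changed with the mouse left out too, so these added calls are no result about the members.

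Other erythroid genes were lower in old mice of the second date as well. Of 88 further genes in 8 erythroid lists, 75 were tested, and 24 of these (32%) were lower and 1 was higher in old vehicle libraries, with a median log2 difference of -0.50. After dmPGE2 26 (34.7%) were lower and 1 was higher. Over all genes 2.59% were called lower and 4.43% higher in vehicle libraries of that date, and 2.87% and 4.55% after dmPGE2. The first date's counts in vehicle libraries were 5 lower (6.67%) and 4 higher, against 2.69% and 3.24% of all genes. The median there was -0.05. The same shares over all genes apply to the counts of single lists in the next 2 paragraphs. The genes named with a value in the next 2 paragraphs passed the test in vehicle libraries of the second date unless stated. The lists are not independent of the members, since both were chosen with results of these data known.

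Among genes of heme synthesis other than Alas2, 7 of 12 were lower in old vehicle libraries of the second date. They included Fech, which inserts iron into the ring (log2 difference -0.77), and the mitochondrial transporter gene Abcb10 (-0.82). Among 11 genes of iron handling, 2 fell, the transferrin receptor gene Tfrc by 1.59 and the ferrireductase gene Steap3 by 1.34 on the log2 scale. The other membrane genes had 8 of 15 lower, with a median of -1.70. Tspan33, a tetraspanin of erythroid cells, differed by -1.58, and the water channel gene Aqp1 by -1.19. Aqp1 had the opposite order on the first date, at 53.4 to 92.1 CPM in old and 34.4 to 40.8 CPM in young libraries of both treatments. Of the other red cell enzymes 4 of 7 were lower, among them the biliverdin reductase gene Blvrb (-1.17) and the antioxidant genes Gpx1 (-0.59) and Prdx2 (-0.55).

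Fewer genes were called among the regulators and in the erythropoietin pathway. Of 14 other transcription factor genes 2 were lower in old vehicle libraries of the second date, among them E2f2, a cell cycle regulator needed in erythroblasts (-1.12). Lmo2, the bridging protein of the GATA1 and TAL1 complex, was the 1 gene that was higher (0.47). Of 9 other genes of erythropoietin signaling only Socs2, an inhibitor of cytokine signaling, was lower (-1.58), and it was lower on the first date as well (-3.05). The 6 remodeling genes had a median difference of -0.09. Globin genes could be followed only in part. Of 12 globin and chaperone genes 3, Hba-x, Hbq1a and Hbq1b, were in the table used, and 1 of them was tested. Hbq1b, a theta globin gene, reached 6.34 to 7.97 CPM in young and 1.6 to 3.48 CPM in old libraries of the second date, and 0 to 0.385 CPM on the first.

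**Figure D3:**
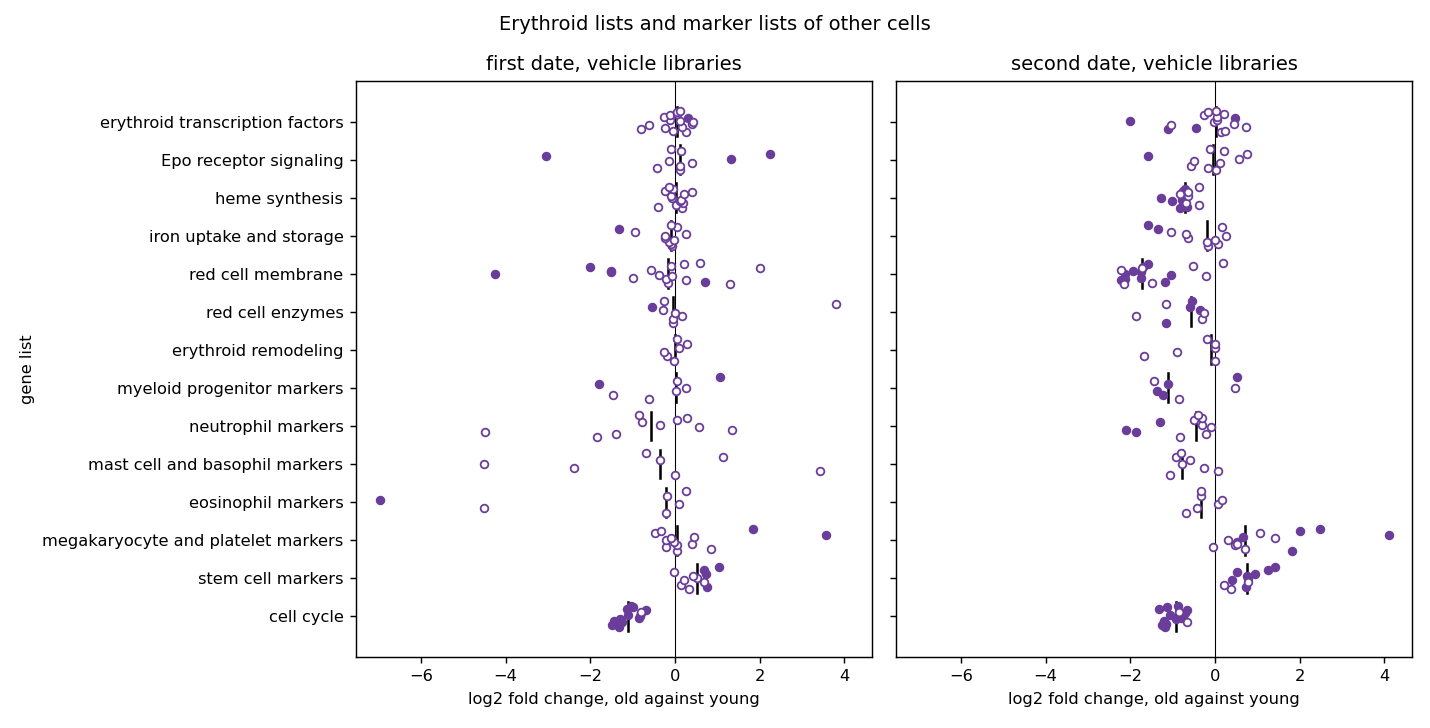
Log2 fold change of old against young vehicle libraries from edgeR, with 1 point for each tested gene of each list (the members stay in their lists), filled where the adjusted p is under 0.05, and a bar at the median of the list, on the first date at left and the second at right. Of the second date, 10 of 17 red cell membrane and 7 of 13 heme synthesis genes are called lower in vehicle libraries, against 4 and 0 on the first date, and cell cycle genes are called lower on both dates. Over all genes 2.59% are called lower on the second date and 2.69% on the first.

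Cell cycle genes, stem cell markers and some marker genes of other cell types also differed by age on the second date. Their part in the result was not tested. Over all genes of the vehicle libraries, 2.59% were called lower and 4.43% higher on that date, and 2.69% and 3.24% on the first. In vehicle libraries 13 of 15 cell cycle genes were lower in old mice, with summed levels of 4250 to 4590 CPM in young and 2070 to 2680 CPM in old mice, and on the first date 14 of 15 were lower. Stem cell markers were called higher in old mice in 8 of 11 cases on the second date and 4 of 11 on the first. The 7 myeloid progenitor genes, led by Mpo and Prtn3, summed to 2210 to 3240 CPM in young and 1420 to 1500 CPM in old vehicle libraries of the second date, and 3 of them were lower and 1 was higher. Over both treatments of that date Mpo was lower in old mice, at 908 to 951 against 1510 to 2470 CPM in young ones. Prtn3 had the opposite order, at 280 to 361 CPM in old and 175 to 208 CPM in young libraries. On the first date the sum was 301 to 331 CPM in old and 157 to 185 CPM in young vehicle libraries. The 10 neutrophil genes summed to 1320 to 1480 CPM in young against 778 to 813 CPM in old vehicle libraries of the second date, and 3 were lower. Of the megakaryocyte and platelet genes, a lineage that shares Gata1 with red cells, 6 of 13 tested were higher in old mice, with 1270 to 1450 CPM in young and 2520 to 3040 CPM in old libraries. Mast cell and basophil genes, another Gata1-expressing lineage, overlapped between the ages at 1800 to 4370 CPM against 528 to 3240 CPM, with a median log2 difference of -0.78 over 7 genes. Eosinophil genes overlapped as well in vehicle libraries, at 1840 to 3150 CPM against 830 to 3280 CPM, with a median of -0.33 over 6 genes. In dmPGE2 libraries of that date they did not overlap, at 3540 to 5330 CPM in young and 2110 to 2150 CPM in old mice. There 5 of 6 were called lower in old mice, against 2.87% of all genes, with a median of -1.12. Eosinophil genes were near 0 on the first date, at 2.36 to 12.6 CPM in all. In vehicle libraries of the second date, monocyte and macrophage genes had a median of -0.66 over 10 genes, B cell genes of -0.40 over 9 and T and NK cell genes of -0.38 over 10. No mast cell and basophil, eosinophil, monocyte and macrophage or B cell gene was called in these libraries. Of the T and NK cell genes 1 was called higher and 1 lower.

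None of the 7 genes passed the test for a difference between dmPGE2 and vehicle on either date. On the first date 0 of 7 were called against 2.84% of all 14529 genes, with 1 member, Car1, at an unadjusted p under 0.05 and 0 called by DESeq2. For the second date 0 of 7 were called against 0.392% of all genes, with 3 members at an unadjusted p under 0.05 and 0 called by DESeq2. Over all 14529 genes, 1929 had an unadjusted p under 0.05 by edgeR on the first date and 1220 on the second.

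Car1 went from 11.5 to 7.59 CPM in young mouse 477 and from 12.2 to 7.36 CPM in young mouse 478 on the first date. In the old mice of that date it went from 21.8 to 3.12 CPM in mouse 479 and from 5.33 to 3.82 CPM in mouse 480. All 4 mice of the first date were lower after dmPGE2, by a log2 difference of -1.22 ± 0.33 (SE, adjusted p = 0.119). The gene was called in a fit of that date alone (-1.17, adjusted p = 0.0454), without robust dispersion (adjusted p = 0.0465) and without mouse 480 (-1.73, adjusted p = 0.000836). The value leaned on mouse 479 and was -0.57 without it (adjusted p = 0.52). Without mouse 480, with only old mouse 479 left on that date, Rhd (-2.52) and Alas2 (0.91) were called too. Car1 was lower on the second date in 2 of 4 mice, 483 and 485.

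Rhd and Rhag had their lowest values of the second date in the dmPGE2 libraries of the old mice. Rhd went from 39.6 to 10.6 CPM in old mouse 485 and from 24.3 to 7.06 CPM in old mouse 486, and in the young mice from 115 to 119 CPM and from 129 to 125 CPM. The log2 difference after dmPGE2 was -1.84 ± 0.39 in old mice (SE, adjusted p = 0.226) and 0.00 ± 0.35 in young mice. Rhag went from 19.9 to 5.75 CPM and from 13.5 to 8.59 CPM in the old mice, a difference of -1.21 ± 0.31 (adjusted p = 0.335), against 0.13 in young mice. Klf1 was lower after dmPGE2 in all 4 mice of that date, by -0.72 ± 0.17 in old (adjusted p = 0.293) and by -0.20 in young mice. Over both ages the values were -0.92 ± 0.26 for Rhd (adjusted p = 0.28), -0.54 ± 0.21 for Rhag (0.516) and -0.46 ± 0.12 for Klf1 (0.204). Rhd was called in a fit of the second date alone (-0.92, adjusted p = 0.00511) and without mouse 479 (0.0189) or mouse 480 (0.019), both of the first date.

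The test of the difference itself called no member. The dmPGE2 response of old minus that of young mice on the second date was -1.85 ± 0.52 for Rhd (SE, adjusted p = 0.449) and -1.34 ± 0.41 for Rhag (0.485), with 0 of 7 called by edgeR, 0% of all genes called, 3 members at an unadjusted p under 0.05 and 0 called by DESeq2. Over all genes 1067 had an unadjusted p under 0.05, and DESeq2 called 26. For the first date 0 of 7 were called against 0.0344% of all genes, with 0 at an unadjusted p under 0.05 and 0 called by DESeq2. Without mouse 480 the difference of the first date was called for Alas2 (2.23, adjusted p = 0.0416). Counted by mouse, old mouse 485 had all 7 genes lower after dmPGE2, with Gata1 at only -0.03 log2 units, and the other mice had between 2 and 6 lower. The share of all genes lower in each mouse is not given, so these counts are a description and no result about the members.

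**Figure D4:**
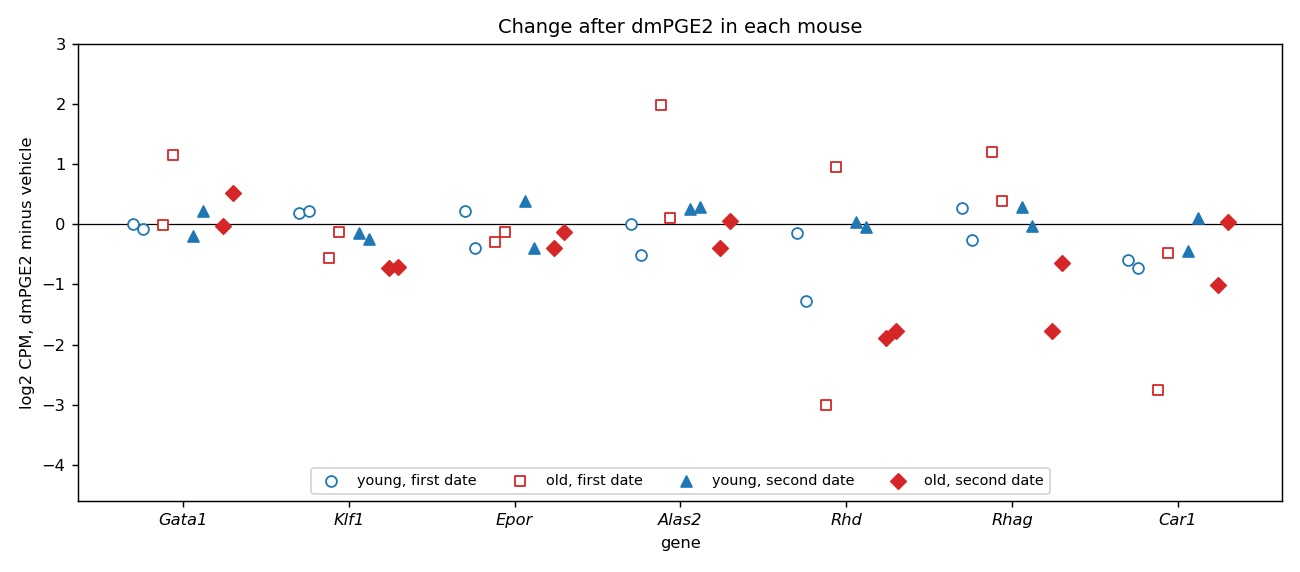
Log2 difference of dmPGE2 from vehicle for each erythroid gene in each of the 8 mice, with young mice in blue, old mice in red, open symbols for the first and filled symbols for the second date. Rhd lies at -1.89 and -1.77 in the old and at 0.04 and -0.04 in the young mice of the second date, and on the first date it spreads from -3.01 in old mouse 479 to 0.95 in old mouse 480.

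Genes with a pattern most like that of the members were sought by the mean absolute difference between the centred log2 CPM of a gene and that of the mean of the 7 members. Over all 16 libraries, among 11191 genes, the nearest included Pirb (0.42 log2 units), Cebpa (0.42), Tyrobp (0.42), Cd36 (0.45) and BC035044 (0.45). This ranking follows the dates, since each of these genes was low on the first and high on the second date, such as Tyrobp at 4.31 to 13.5 and 92.3 to 211 CPM. Over the 8 libraries of the second date, among 11330 genes, the nearest were St3gal5 (0.11), Hbq1b (0.15), Cdc6 (0.16), Ctse (0.16), Fancd2 (0.17) and Slc25a21 (0.20). St3gal5, the synthase of the ganglioside GM3, stood at 53.7 to 60.1 CPM in young and 15.7 to 23 CPM in old libraries of that date. Ctse, the protease cathepsin E, stood at 235 to 290 CPM in young and 48.4 to 105 CPM in old libraries. St3gal5, Cdc6 and Fancd2 were lower in old libraries of the first date as well, such as Cdc6 at 21.4 to 34.3 against 56 to 63.7 CPM in young ones. Hbq1b, Ctse and Slc25a21 overlapped between the ages there. The members themselves lay at 0.22 for Car1, 0.34 for Rhag, 0.39 for Klf1, 0.43 for Gata1, 0.48 for Alas2, 0.54 for Epor and 0.59 for Rhd from their mean, of which each is a part.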

How the data were processed

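RNA was sequenced from 16 libraries of 8 mice. The authors deposited raw read counts per gene, with no normalization, and 2504 empty lines below the genes were left out here. Per the submitters' processing notes, the tools included STAR 2.5.2b, Subread 1.5.1 and featureCounts, and mm10 was the build. The annotation and strand setting were not given in the sources used here. Members and gene lists were chosen with earlier results of these data known.

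The test was edgeR's quasi-likelihood F-test (edgeR 4.0.16, R 4.3.3) on TMM-scaled counts, with robust dispersion and the filter filterByExpr, with Benjamini-Hochberg adjustment over all genes tested. Age was fitted in the 8 libraries of 1 treatment with a mean for each age and date, over 14115 genes in vehicle and 14029 in dmPGE2 libraries. The dmPGE2 response was fitted in all 16 libraries over 14529 genes, with mouse as a block and a dmPGE2 term for each age and date. Each fit had 4 residual degrees of freedom. The pairing comes from the series description, since the cells of each mouse were divided, and after removal of group means the libraries of a mouse correlated at 0.34 to 0.589. Standard errors were obtained by dividing the size of a log2 fold change by √F. Log2 CPM used a prior count of 2. The scripts were tested on simulated data. Alternatives were DESeq2 1.42.0, other size factors, no filter, no robust dispersion, 1 date alone, counts of a mouse added, no block and each mouse left out.

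All members were named. From each erythroid list up to 3 called genes with the smallest p in old against young vehicle libraries of the second date were named, with all globins, and from each other list the genes with the highest mean CPM. The likeness search kept genes with a mean log2 CPM of at least 2. Some genes that these rules would name are not reported here.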

Additional observations from a re-analysis of the deposited data

Results flagged for a closer look

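In 42 groups of 4 samples, values were checked for a sample that lay far from the other members of its group. Each group held 2 mice of each date. The usual rate of about 1 in 20 groups holds for samples of a single kind and does not apply here. Where levels differed widely between the dates, as for Rhd, the check can hardly flag a library, so a lack of flags says little. The check found 2 such samples. Gata1 stood at a log2 CPM of 3.9 in the dmPGE2 library of old mouse 480, at 14.8 CPM, while the other old dmPGE2 libraries held 36.3, 42.1 and 37.2 CPM. The vehicle library of the same mouse was also the lowest of its group, at 6.6 CPM. Rhd differed by -1.28 log2 units after dmPGE2 in young mouse 478, from 3.01 to 1.17 CPM, while the other young mice lay between -0.14 and 0.04.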

How the results depend on the processing

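Of 1036 member values recomputed under the alternatives, 955 kept their sign and their side of the threshold, 15 lost a call and 31 gained one. No called value changed sign, and 35 values that were not called did. Each comparison within a date had 2 mice per age, and on the first date levels of Rhd and Rhag were below 5 CPM in every library. The cause of these changes was not tested.

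The number of erythroid genes called between the ages moved as follows. Calls over all genes moved as well, and a fit with a mouse left out holds only 1 mouse in a group. The counts here and in the next paragraph therefore describe the fits and are no result about the members. On the first date it was 2 in vehicle libraries, 0 with that date fitted alone and 0 to 2 with each mouse left out in turn. In dmPGE2 libraries it was 1, Car1, whose call was lost when any mouse of that date was left out. With the vehicle and dmPGE2 counts of a mouse added, Car1 was not called, and Rhd and Rhag were. On the second date it was 3 in vehicle libraries, then 5 with counts of a mouse added, 4 with that date alone and 2 to 5 with a mouse left out. In dmPGE2 libraries it was 4, then 4 to 5 with a mouse left out. The change of the age difference between dates gave 0 with edgeR, and with DESeq2 1 in vehicle and 3 in dmPGE2 libraries, with 0 to 1 in the latter when a mouse was left out.

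For dmPGE2 against vehicle, 0 became 1 on the first date without robust dispersion. With the date alone and the replicate block it became 1 on either date, and without the replicate block it stayed at 0. With a mouse left out it was 0 to 3 on the first and 0 to 1 on the second date, and 0 to 1 for the old minus young response on the first.

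Values that changed sign are given as log2 differences. With the vehicle and dmPGE2 counts of a mouse added, old against young on the first date was -0.18 for Klf1, -0.20 for Car1 and 0.05 for Epor. The values had been 0.13 for Klf1 and 0.17 for Car1 in vehicle libraries, and -0.02 for Epor in dmPGE2 libraries. The old minus young response of Rhd on the first date became -0.45 with DESeq2 and -0.16 with the date alone and the replicate block. The following ranges come from leaving out each mouse in turn. Old against young on the first date ran from -2.31 to 0.17 for Gata1, -0.46 to 0.56 for Klf1, -0.19 to 0.39 for Epor, -1.52 to 0.93 for Alas2 and -1.17 to 0.87 for Car1 in vehicle libraries, and from -1.11 to 0.20 for Gata1 and -0.24 to 0.18 for Epor in dmPGE2 libraries. The age difference of the second minus the first date ran from -1.21 to 1.26 for Gata1, -1.62 to 0.84 for Alas2 and -0.60 to 0.06 for Rhag in vehicle libraries, and from -1.04 to 0.27 for Gata1 and -3.57 to 1.06 for Rhd in dmPGE2 libraries. The dmPGE2 response ran from -0.01 to 0.57 for Gata1, -0.17 to 0.04 for Klf1, -0.30 to 0.01 for Epor, -0.05 to 0.91 for Alas2 and -2.52 to 0.18 for Rhd on the first date, and from -0.01 to 0.26 for Gata1, -0.33 to 0.06 for Epor and -0.06 to 0.17 for Alas2 on the second. The old minus young response ran from -0.43 to 0.20 for Epor, -3.66 to 1.74 for Rhd and -2.13 to 0.19 for Car1 on the first date, and from -0.04 to 0.51 for Gata1, -0.64 to 0.14 for Epor and -0.84 to 0.21 for Car1 on the second.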
